A study of Mus musculus with 6 samples.

Results

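The 10 genes described here encode transcription factors by which hepatocytes sense drugs, lipids, bile acids and steroid hormones, and partners of these factors: Nr1i2, Nr1i3, Ppara, Nr1h3, Nr1h4, Nr0b2, Rxra, Ahr, Nr3c1 and Esr1. They were chosen by gene name, and all 10 were found among the 25102 genes of the table. Expression was measured in 6 liver libraries of C57BL/6J males whose age at the start was 2 weeks, 3 in a control group and 3 in a group given diethylnitrosamine and carbon tetrachloride (DEN+CCl4), a chemical model of liver cancer. Treatment was a single intraperitoneal dose of DEN (1 mg/kg), followed about 6 weeks later by intraperitoneal CCl4 (0.2 mL/kg), given 2 times a week over 14 weeks at most. What the controls received, the age at sampling, and whether a treated library held tumour or surrounding tissue are not stated in the labels. Replicates carry a number and no animal, so p-values here reflect only how much these 6 libraries vary, which may in part be technical. Levels are in FPKM (fragments per kilobase of transcript, relative to all mapped fragments), a scale per length on which genes can be compared.

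Nuclear receptors are transcription factors that change partners and target genes when a small molecule occupies their ligand pocket. In liver, CAR (Nr1i3) and PXR (Nr1i2) respond to drugs and other foreign compounds, FXR (Nr1h4) to bile acids, LXRα (Nr1h3) to oxysterols and PPARα (Ppara) to fatty acids, and each of these binds DNA together with RXRα (Rxra). SHP (Nr0b2) has no DNA-binding domain and represses other receptors. The glucocorticoid receptor (Nr3c1) and oestrogen receptor α (Esr1) bind steroid hormones, and the aryl hydrocarbon receptor (Ahr), a bHLH-PAS protein outside the nuclear receptor family, binds planar aromatic compounds.

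The libraries differed in composition within the DEN+CCl4 group. Mitochondrially encoded transcripts took 64.2% of the summed FPKM of DEN+CCl4 replicate 3 and 26.6% to 43.0% of the others. The median level over tested genes was 1.19 FPKM in that library and 3.43 to 4.46 FPKM in the others. Tests covered the 8528 genes whose mean reached 1 FPKM, and 83.9% of them lay below all 3 controls in replicate 3, against 11.9% in replicate 1 and 22.7% in replicate 2. Differences are therefore also given after median-ratio scaling, in which a library's typical gene is brought to a common level. These shares then became 37.1%, 18.2% and 31.4%. All 7 hepatocyte markers in the table were present in every library, from Alb (albumin), at 7482 to 24459 FPKM, to Apob (apolipoprotein B), at 4.99 to 53.9 FPKM. In bulk tissue, fewer hepatocytes and less of a transcript per hepatocyte cannot be told apart.

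Promoters of 8 of the 10 genes, with 11 start sites in the RefSeq table (GRCm38.p6), were searched. Ahr had no entry there, and Nr3c1 was left out of the search, so its promoter was not examined. The 250 bases before the start site are printed for the 4 genes with the most negative differences after scaling, among them the close relatives Nr1i3 and Nr1i2. Each window is printed in the direction of its gene, and capitals mark matches on either strand to the motifs named after the sequences.
Nr1i3, + strand, chr1:171213720-171213969: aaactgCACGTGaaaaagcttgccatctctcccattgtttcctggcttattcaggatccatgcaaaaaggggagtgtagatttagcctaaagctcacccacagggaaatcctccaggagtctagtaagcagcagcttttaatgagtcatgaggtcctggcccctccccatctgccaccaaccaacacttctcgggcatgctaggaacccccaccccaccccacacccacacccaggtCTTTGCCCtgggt
Nr1i2, - strand, chr16:38294825-38295074: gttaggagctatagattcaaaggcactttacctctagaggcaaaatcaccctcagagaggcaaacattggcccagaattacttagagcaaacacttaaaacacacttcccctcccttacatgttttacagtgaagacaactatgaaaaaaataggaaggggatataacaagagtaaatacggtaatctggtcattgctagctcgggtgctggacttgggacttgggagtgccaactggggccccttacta
Nr0b2, + strand, chr4:133553126-133553375: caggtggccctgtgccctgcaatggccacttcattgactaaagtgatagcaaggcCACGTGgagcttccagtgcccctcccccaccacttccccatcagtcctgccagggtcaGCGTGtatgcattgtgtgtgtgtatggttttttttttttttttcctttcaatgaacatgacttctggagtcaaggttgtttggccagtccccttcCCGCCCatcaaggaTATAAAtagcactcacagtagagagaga
Nr1h4, - strand, chr10:89506659-89506908: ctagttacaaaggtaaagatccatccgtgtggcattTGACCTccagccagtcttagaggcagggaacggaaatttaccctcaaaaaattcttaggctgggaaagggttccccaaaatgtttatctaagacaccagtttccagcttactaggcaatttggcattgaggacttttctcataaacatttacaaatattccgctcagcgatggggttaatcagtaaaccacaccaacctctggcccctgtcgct

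The Nr1i3 window held GGNCAAAG, the core of a direct repeat of receptor half-sites spaced by 1 base, on the strand opposite to the printed one, 13 to 6 bases before the start. That motif occurred in 4.89% of the 32851 promoter windows of this length. It also held the E-box CACGTG, 244 to 239 bases before the start, a motif found in 6.02% of all windows. These motifs were chosen after the sequences had been read. The Nr1i2 window held none of the motifs searched, which says only that these letters are not in this window. The Nr0b2 window held the TATA box TATAAA (28 to 23 bases before the start), present in 12.4% of all windows. It also held the GC box GGGCGG (32.7% of all windows), an E-box, and GCGTG, the core of an AHR site (28.2%). The Nr1h4 window lies inside the annotated gene (chr10:89454234-89533585, - strand), before an internal start site. It held 1 half-site AGGTCA, a motif of 14.0% of all windows. The match was on the strand opposite to the printed one, 214 to 209 bases before that start. An inverted repeat of that half-site spaced by 1 base was in none of the 11 windows and in 0.00609% of all. GC content of the 4 windows ran from 44.0% to 53.2%, around the median of 52.4% over all windows, whereas it was 81.2% at 1 of the 2 start sites of Rxra and 76.4% at that of Ppara.

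None of the 9 tested receptor genes passed the test (limma on log2(FPKM + 1), Benjamini-Hochberg adjusted over all genes), which 1.48% of all genes passed. Nr1i3 had the largest difference of the 9, and its treated libraries all lay below its controls. Ahr was the other gene with separate groups. For the remaining 7 tested genes, DEN+CCl4 replicate 1 lay within the control range or above it, while replicate 3, as deposited, lay below every control. Groups were separate in the lower direction for 2 of the 9 genes and 5.35% of all genes, and in the higher direction for 0 of the 9 and 3.01% of all genes. After scaling the same 2 were separate and lower, against 6.52% of all genes, and 0 were higher, against 7.63%. Without replicate 3 the log2 differences shrank towards 0 by more than 1.5 times for Nr1i3 (-1.80), Nr1i2 (-0.30), Nr1h4 (-0.23), Nr0b2 (-0.26), Rxra (-0.26) and Ahr (-0.46). Those of Ppara (0.14), Nr1h3 (0.0040) and Nr3c1 (0.18) turned positive. At an unadjusted limma p under 0.05, 1 of the 9 (Nr1i3) was lower, against 5.07% of all genes, and 2 (Nr1i3 and Ahr) after scaling, against 5.23%. The median log2 difference of the 9 was -0.86 against -0.27 for all genes, and -0.69 against 0.014 after scaling. Adding 1 understates changes of low genes, so medians of sets that differ in abundance, here and below, are not fully alike.

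**Figure D1:**
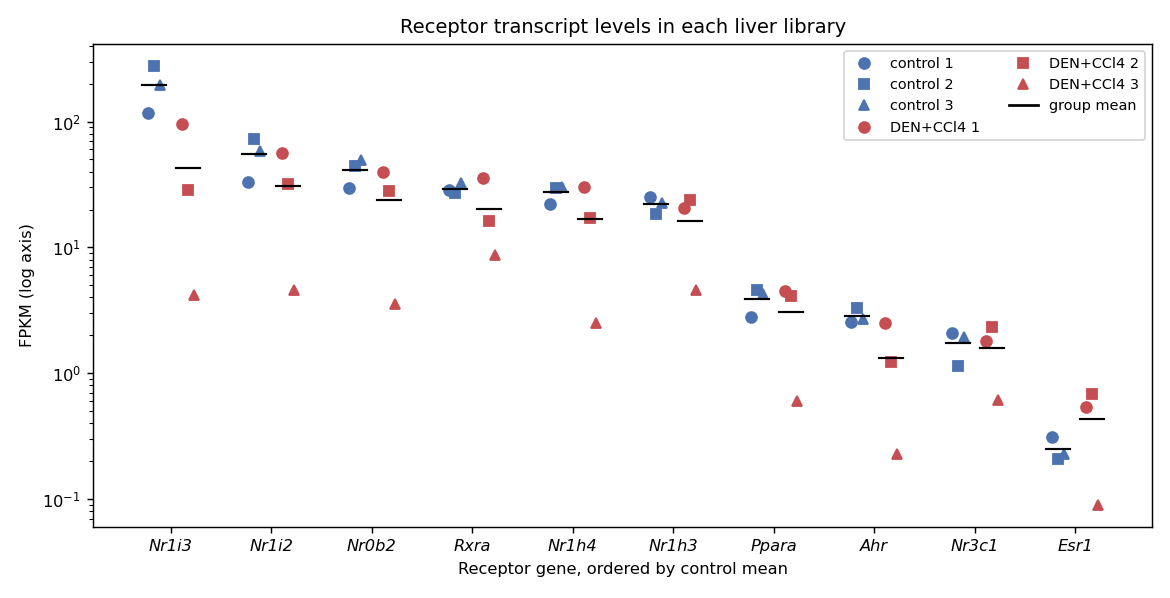
FPKM (log axis) of the 10 receptor genes in the 3 control and 3 DEN+CCl4 libraries, with a marker for each replicate and a line at each group mean. Nr1i3 is the most abundant of the 10 in all 3 controls, and DEN+CCl4 replicate 3 lies below all 3 controls for each gene.

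Among the sensors of foreign compounds, Nr1i3 (ENSMUSG00000005677, chr1:171213970-171220701, + strand, GRCm38 as for all positions) encodes the constitutive androstane receptor, which drives phenobarbital-type induction of P450 enzymes. It measured 118, 277 and 196 FPKM in control liver and 95.0, 28.8 and 4.20 FPKM after DEN+CCl4. All 3 treated libraries lay below the lowest control, replicate 1 nearest to it and replicate 3 farthest. The means were 197 ± 79.4 and 42.7 ± 47.0 FPKM (SD, n = 3). The log2 difference was -2.92 (SE 1.003, limma adjusted p = 0.149), larger in size than that of 99.3% of tested genes. After scaling it was -2.50 (SE 0.70, limma adjusted p = 0.453), and 0.633% of tested genes had a lower value. The treated libraries then stood at -1.05, -2.83 and -3.61 from the control mean. An exact permutation test over the libraries gave p = 0.1 (two-sided; 0.5 adjusted over the 10 genes), the smallest that 3 against 3 allow.

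Which library was left out decided the call for Nr1i3. Without DEN+CCl4 replicate 1 it passed, as deposited (log2 difference -3.91, limma adjusted p = 0.00481) and after scaling (-3.22, adjusted p = 0.0173), in fits that called 3.17% and 4.24% of all genes lower. Without replicate 3 the difference was -1.80 (limma adjusted p = 0.608), and -1.96 after scaling (adjusted p = 0.698). It stayed negative in all 23 alternatives, from -3.91 to -1.22, with limma adjusted p from 0.00481 to 0.984.

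Of the 4414 annotated exonic bases of Nr1i3, 3304 also lie in exons of Tomm40l, a gene for a mitochondrial outer membrane protein on the opposite strand. Whether reads were counted by strand is not given in the sources used here, so reads of the shared bases may not be told apart. Tomm40l measured 3.72, 10.2 and 4.14 FPKM in control liver and 4.84, 3.70 and 0.38 FPKM after DEN+CCl4 (log2 difference -0.95, limma adjusted p = 0.834). Nr1i3 was 27.1 to 47.3 times as high as Tomm40l in controls, and 19.6, 7.78 and 11.1 times as high in DEN+CCl4 replicates 1, 2 and 3, below every control. No value was added in these ratios, and that of replicate 3 rests on a Tomm40l level of only 0.38 FPKM.

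Nr1i2 (ENSMUSG00000022809, chr16:38248323-38294824, - strand) encodes the pregnane X receptor, the main inducer of Cyp3a enzymes. It measured 33.3, 73.2 and 58.8 FPKM in control liver and 56.0, 32.2 and 4.6 FPKM after DEN+CCl4. Replicate 1 lay inside the control range, replicate 2 just below it and replicate 3 far below. Its log2 difference was -1.28 (SE 0.92, limma adjusted p = 0.946), and -0.86 after scaling (SE 0.53, limma adjusted p = 0.584). The scaled libraries stood at -0.0017, -0.88 and -1.69 from the control mean.

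The ratio of Nr1i3 to Nr1i2 within a library, chosen after its values were seen, does not depend on the library's scale apart from the added 1. Its log2 value was 1.79, 1.90 and 1.72 in controls and 0.75, -0.16 and -0.11 after DEN+CCl4. The controls lay close together and above every treated library, with means of 1.80 ± 0.094 and 0.16 ± 0.51 (SD, n = 3). The difference was -1.64 (exact two-sided permutation p = 0.1, the smallest possible), and it ranged from -1.94 to -1.48 when any 1 library was left out.

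Ahr (ENSMUSG00000019256, chr12:35497974-35535038, - strand), the receptor for dioxin-like compounds, measured 2.56, 3.32 and 2.71 FPKM in control liver and 2.51, 1.23 and 0.23 FPKM after DEN+CCl4. Replicate 1 lay just below the lowest control, and the other 2 lay well below. On the log2 scale Ahr differed by -0.86 (SE 0.47, limma adjusted p = 0.736), and -0.69 after scaling (SE 0.27, limma adjusted p = 0.453). An exact two-sided permutation test gave p = 0.1.

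The receptors for bile acids and sterols had smaller differences than Nr1i3. Nr1h4 (ENSMUSG00000047638, chr10:89454234-89533585, - strand), the farnesoid X receptor that limits bile acid synthesis, measured 22.2, 29.6 and 30.4 FPKM in control liver and 30.5, 17.2 and 2.53 FPKM after DEN+CCl4. Replicate 1 lay above all controls and the other 2 below them. The log2 difference was -1.15 (SE 0.83, limma adjusted p = 0.946), and -0.77 after scaling. Nr0b2 (ENSMUSG00000037583, chr4:133553376-133556536, + strand), which FXR induces and whose product SHP represses bile acid synthesis, measured 29.7, 44.1 and 49.9 FPKM in control liver and 40.0, 28.2 and 3.56 FPKM after DEN+CCl4. Replicate 1 lay inside the control range, replicate 2 just below it and replicate 3 far below. Its log2 difference was -1.23 (SE 0.89, limma adjusted p = 0.946), and -0.82 after scaling. From the control mean, the scaled treated libraries stood at 0.067, -0.81 and -1.55 for Nr1h4 and at -0.10, -0.69 and -1.66 for Nr0b2, an order of libraries that Nr1i3, Nr1i2, Ahr and Ppara also had.

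Nr1h3 (ENSMUSG00000002108, chr2:91184061-91202834, - strand), the liver X receptor α, which Kupffer cells also make, measured 25.3, 18.5 and 22.6 FPKM in control liver and 20.5, 23.7 and 4.62 FPKM after DEN+CCl4. Replicates 1 and 2 lay inside the control range and replicate 3 below it. The log2 difference was -0.67 (SE 0.82, limma adjusted p = 0.996), -0.25 after scaling and 0.0040 without replicate 3. Summed Kupffer cell markers, among them Clec4f and Cd5l, were at 29.2 to 77.5 FPKM in controls and 17.6 to 35.3 FPKM after DEN+CCl4 (0 of 4 tested passed), and their part in the Nr1h3 values was not tested.

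Ppara (ENSMUSG00000022383, chr15:85734983-85802819, + strand), which turns on fatty acid oxidation in fasting, measured 2.82, 4.55 and 4.27 FPKM in control liver and 4.50, 4.14 and 0.60 FPKM after DEN+CCl4. Replicates 1 and 2 lay inside the control range and replicate 3 below it. Its log2 difference was -0.43 (SE 0.55, limma adjusted p = 0.996), -0.20 after scaling and 0.14 without replicate 3.

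The steroid receptors were scarce. Nr3c1 (ENSMUSG00000024431, chr18:39410545-39519421, - strand), which carries the response to corticosterone, measured 2.08, 1.15 and 1.95 FPKM in control liver and 1.81, 2.32 and 0.61 FPKM after DEN+CCl4. The groups overlapped, and the log2 difference of -0.13 (SE 0.45, limma adjusted p = 0.996) turned to 0.11 after scaling. Esr1 (ENSMUSG00000019768, chr10:4611593-5005614, + strand), the receptor for oestradiol, measured 0.31, 0.21 and 0.23 FPKM in control liver and 0.54, 0.68 and 0.09 FPKM after DEN+CCl4. Replicates 1 and 2 lay above all controls and replicate 3 below them (exact two-sided permutation p = 0.4). Its mean was below 1 FPKM, so it was not among the genes tested with limma.

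Rxra (ENSMUSG00000015846, chr2:27676440-27762957, + strand), the shared partner, measured 28.6, 26.9 and 32.5 FPKM in control liver and 35.7, 16.3 and 8.71 FPKM after DEN+CCl4. Replicate 1 lay above all controls and the other 2 below. The log2 difference was -0.72 (SE 0.86, limma adjusted p = 0.996), and -0.27 after scaling. The scaled libraries stood at 0.18, -0.98 and -0.0046 from the control mean, so that replicate 2 was the low one, whereas it was replicate 3 for Nr1i3, Nr1i2, Nr1h4, Nr0b2, Ahr, Ppara and Nr1h3.

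**Figure D2:**
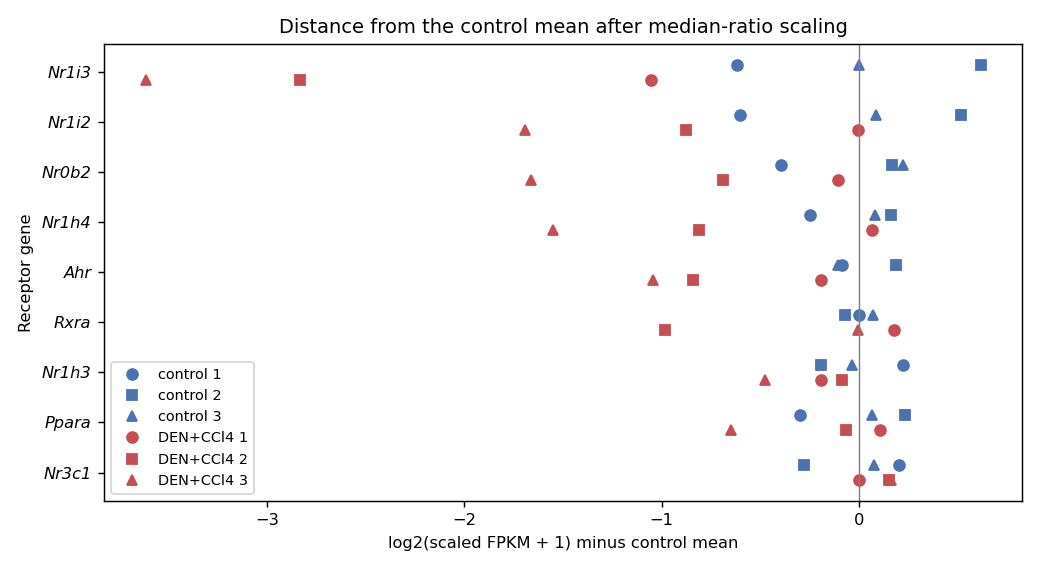
Distance of each library from the control mean on log2(scaled FPKM + 1) for the tested receptor genes, with a marker for each control and DEN+CCl4 replicate. Nr1i3 lies at -1.05, -2.83 and -3.61 in the treated libraries, and the treated values of Nr3c1 lie within the range of its controls.

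By group mean, ranks 1 to 7 were the same in both groups, and only Ahr and Nr3c1 (8 and 9 in controls) changed places. In controls Nr1i3 was followed by Nr1i2 (55.1 ± 20.2 FPKM), Nr0b2 (41.2 ± 10.4 FPKM), Rxra (29.4 ± 2.84 FPKM), Nr1h4 (27.4 ± 4.51 FPKM) and Nr1h3 (22.1 ± 3.41 FPKM; SD, n = 3). Far lower were Ppara (3.88 ± 0.93 FPKM), Ahr (2.86 ± 0.40 FPKM), Nr3c1 (1.73 ± 0.50 FPKM) and Esr1 (0.25 ± 0.053 FPKM; SD, n = 3). Among neighbours in this order, the control ranges of Nr1i3 and Nr1i2, Nr1h3 and Ppara, Ahr and Nr3c1, and Nr3c1 and Esr1 were separate, and all others overlapped. After DEN+CCl4 only Nr1h3 and Ppara were separate. Nr1i3 ranked 1 in every control and in DEN+CCl4 replicate 1. Within single libraries it ranked 2 in replicate 2, below Nr1i2, and 4 in replicate 3, below Rxra, Nr1h3 and Nr1i2.

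Nr1i3 supplied 44.5, 57.9 and 49.0% of the summed FPKM of the 10 genes in controls and 33.1, 18.6 and 14.1% after DEN+CCl4. Every treated library was below every control, a share looked at after the values were seen that does not depend on a library's scale (difference of the means -28.5 percentage points, exact two-sided permutation p = 0.1, the smallest possible). The sum itself was 265, 478 and 399 FPKM in controls and 287, 155 and 29.8 FPKM after DEN+CCl4. Rxra supplied 5.63% to 10.8% of it in controls and 12.4, 10.6 and 29.3% after DEN+CCl4.

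**Figure D3:**
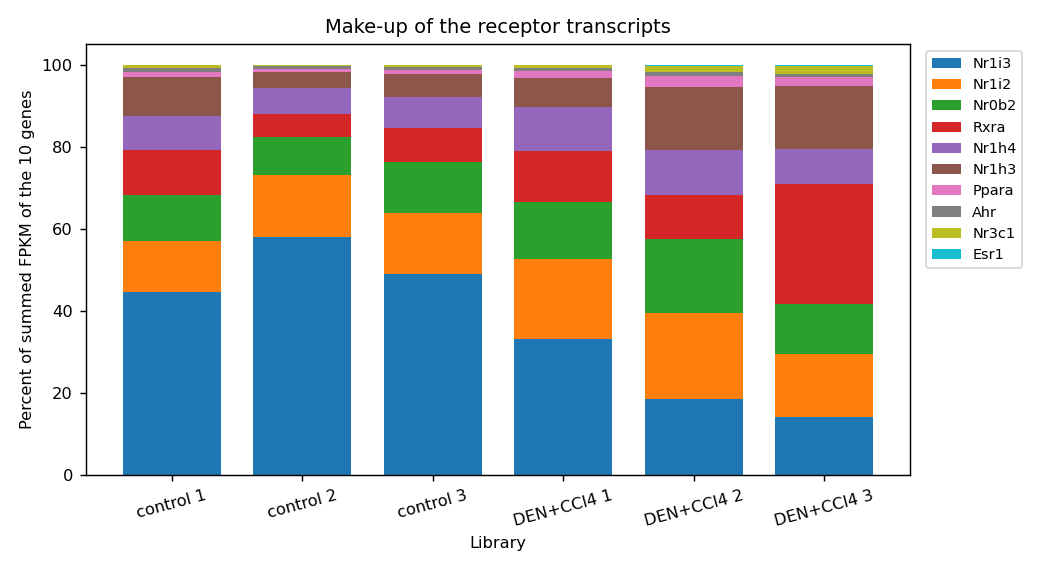
Share of each receptor gene in the summed FPKM of the 10 genes, as bars stacked to 100% for each of the 6 libraries. Nr1i3 takes 44.5% to 57.9% in the controls and 14.1% to 33.1% in the DEN+CCl4 libraries.

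Each gene was then set against Rxra within the same library, since several of these receptors bind DNA with its product. The log2 ratio of Nr1i3 to Rxra was 2.00, 3.31 and 2.55 in controls and 1.39, 0.78 and -0.90 after DEN+CCl4. The groups were separate, with a difference of -2.20 (exact two-sided permutation p = 0.1, adjusted p = 0.771 over 9 ratios). With 1 added, they overlapped for each of the other 8 genes, whose differences ran from -0.56 for Nr1i2 to 0.90 for Esr1 (exact permutation p from 0.3 to 1). The ratio of Nr3c1 was -3.27, -3.70 and -3.50 in controls and -3.71, -2.38 and -2.59 after DEN+CCl4, above all controls in replicates 2 and 3 and below them in replicate 1. The low genes depended on the added value. With 0.1 in its place, the ratio of Ahr was -3.43, -2.98 and -3.54 in controls and -3.78, -3.63 and -4.74 after DEN+CCl4, and that of Esr1 -6.13, -6.45 and -6.63 and -5.80, -4.40 and -5.54. Groups were then separate for 3 of the 9 ratios, lower for Nr1i3 (difference -2.26) and Ahr (-0.73, against -0.13 with 1 added) and higher for Esr1 (1.16), each at an exact permutation p of 0.1 (0.300 adjusted over 9 ratios).

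**Figure D4:**
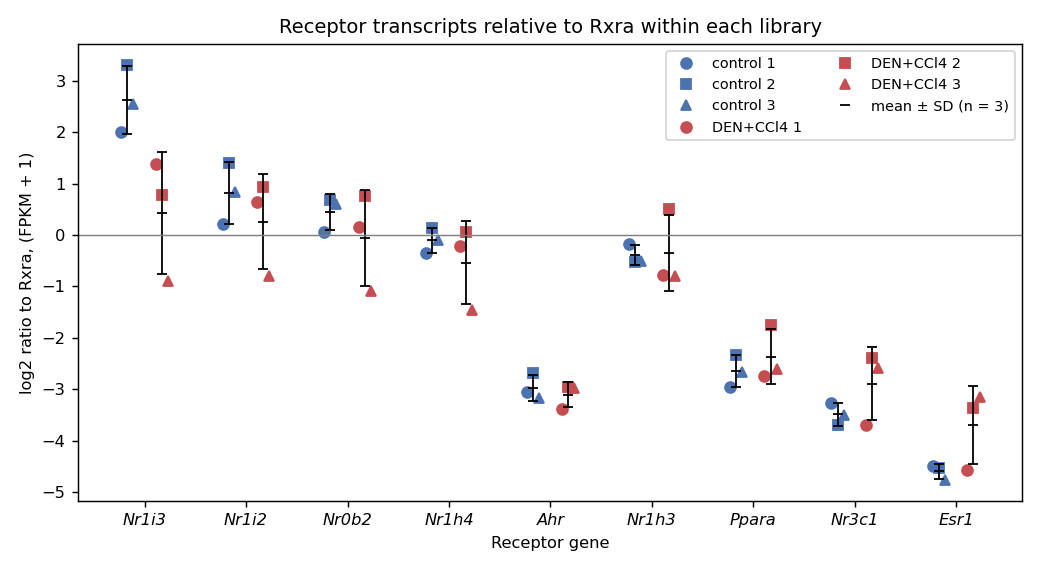
Log2 ratio of each gene to Rxra within a library, from FPKM + 1, with a marker for each control and DEN+CCl4 replicate and the mean ± SD (n = 3) of each group. The groups are separate for Nr1i3 (difference -2.20) and overlap for the other 8 genes, of which Ahr and Esr1 also separate when 0.1 is added in place of 1.

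Genes known to be regulated by these receptors were counted by how many passed the same test, which 0.645% of all genes passed as lower and 0.833% as higher. After scaling, limma called 0 genes of the whole table (446 lower and 468 higher at an unadjusted p under 0.05), and it also called 0 without DEN+CCl4 replicate 3, so each call below is lost in both settings. Of 14 tested targets of CAR and PXR, 4 fell and 1 rose, and the median log2 difference was -1.58 (-1.17 after scaling). The P450 gene Cyp2c37 measured 114, 147 and 227 FPKM in control liver and 42.9, 8.41 and 0.18 FPKM after DEN+CCl4 (log2 difference -4.32, limma adjusted p = 0.00198). All its treated libraries were below all controls. The P450 gene Cyp2c29 (-3.46, limma adjusted p = 0.00706), the retinal dehydrogenase Aldh1a1 (-2.90, adjusted p = 0.0446) and the uptake carrier Slco1a4 (-1.99, adjusted p = 0.0174) fell too. Cyp2b9, a P450 gene with female-biased expression, rose, with 0.19, 0.64 and 0.87 FPKM in control liver and 4.91, 131 and 22.1 FPKM after DEN+CCl4 (4.09, limma adjusted p = 2.30e-06).

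The Cyp2b and Cyp2c families hold near-identical copies among which reads may be split, so their single members are uncertain. Cyp3a11, the usual reporter of PXR, measured 145, 82.7 and 225 FPKM in control liver and 84.0, 12.3 and 3.25 FPKM after DEN+CCl4 and did not pass (log2 difference -3.06, limma adjusted p = 0.0951). Cyp2b10, the usual reporter of CAR, was under the filter, at 0.11, 0.11 and 0.52 FPKM in controls and listed at 0 in every treated library. Slco1a4, Cyp3a11 and Cyp2b10 were named after their values were seen.

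Of 21 tested targets of PPARα, 2 fell and 1 rose, with a median of -1.37 (-1.02 after scaling). The fatty acid hydroxylase Cyp4a10 measured 66.6, 159 and 201 FPKM in control liver and 62.7, 5.40 and 0.18 FPKM after DEN+CCl4 (log2 difference -4.05, limma adjusted p = 0.00464). Its relative Cyp4a14 measured 7.09, 42.2 and 33.9 FPKM in control liver and 4.66, 0.78 and 0.02 FPKM after DEN+CCl4 (-3.40, limma adjusted p = 0.000359). In both, replicate 1 lay nearest to the controls, and both belong to a family of near-identical copies. Fgf21, a hormone secreted by the fasting liver, measured 0.05, 0.74 and 0.81 FPKM in control liver and 0.57, 9.78 and 4.19 FPKM after DEN+CCl4 (1.58, limma adjusted p = 0.0480). Replicate 1 lay inside its control range and the other 2 above it. Of the 21, 20 had a negative difference, against 74.4% of all genes, and 18 after scaling, against 48.6%.

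Of 12 tested targets of FXR, 1 fell and 0 rose, with a median of -1.35 (-1.0 after scaling). The list holds Nr0b2, which FXR induces, beside genes of bile acid synthesis, which SHP represses. Its median therefore gives no direction of FXR activity. The one that fell was Cyp8b1, the sterol 12-hydroxylase of bile acid synthesis, with 107, 54.2 and 65.3 FPKM in control liver and 38.8, 6.91 and 0.26 FPKM after DEN+CCl4 (log2 difference -3.32, limma adjusted p = 0.0209). Fetub, a plasma protease inhibitor, averaged 679 ± 118 and 542 ± 373 FPKM in control and treated libraries, and Apoc2, an activator of lipoprotein lipase, 97.5 ± 47.6 and 209.5 ± 122 FPKM (SD, n = 3). None of 11 tested targets of LXR passed, with a median of -0.50 (-0.080 after scaling). At an unadjusted limma p under 0.05, 1 was lower and 1 higher, against 5.07% and 2.53% of all genes. The lipogenic desaturase Scd1 averaged 94.5 ± 38.9 and 120.0 ± 62.8 FPKM, and the sterol exporter Abcg5 69.0 ± 17.1 and 44.6 ± 29.2 FPKM (SD, n = 3).

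Of 5 tested AHR targets, 1 fell and 0 rose, with a median of -0.57 (-0.18 after scaling). Cyp1a2, a P450 of drug metabolism, measured 238, 121 and 258 FPKM in control liver and 180.2, 10.8 and 0.90 FPKM after DEN+CCl4 (log2 difference -3.62, limma adjusted p = 0.0305), and its replicate 1 lay inside the control range. The conjugating enzyme Ugt1a6a averaged 9.67 ± 0.92 and 5.75 ± 4.65 FPKM (SD, n = 3) and did not pass.

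Of 18 tested glucocorticoid receptor targets, 1 rose and 0 fell, with a median of -1.04 (-0.74 after scaling). The one that rose was Cdkn1a, a cell cycle inhibitor that is also a target of p53, with 0.62, 0.59 and 0.34 FPKM in control liver and 1.22, 13.7 and 6.19 FPKM after DEN+CCl4 (log2 difference 2.03, limma adjusted p = 0.00882). The tyrosine aminotransferase Tat averaged 854 ± 178 and 371 ± 443 FPKM, and the metallothionein Mt1 1183 ± 929 and 507 ± 598 FPKM (SD, n = 3), without passing. None of 5 tested oestrogen receptor targets passed, with a median of -0.21 (0.17 after scaling). At an unadjusted limma p under 0.05, 1 was lower, against 5.07% of all genes. Igfbp4, which binds insulin-like growth factors, averaged 217 ± 61.2 and 148 ± 113 FPKM, and the lysosomal protease Ctsd 48.0 ± 18.4 and 44.5 ± 11.98 FPKM (SD, n = 3). The lists share some genes, such as Cyp7a1 (LXR and FXR) and Angptl4 (PPARα and glucocorticoid receptor).

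**Figure D5:**
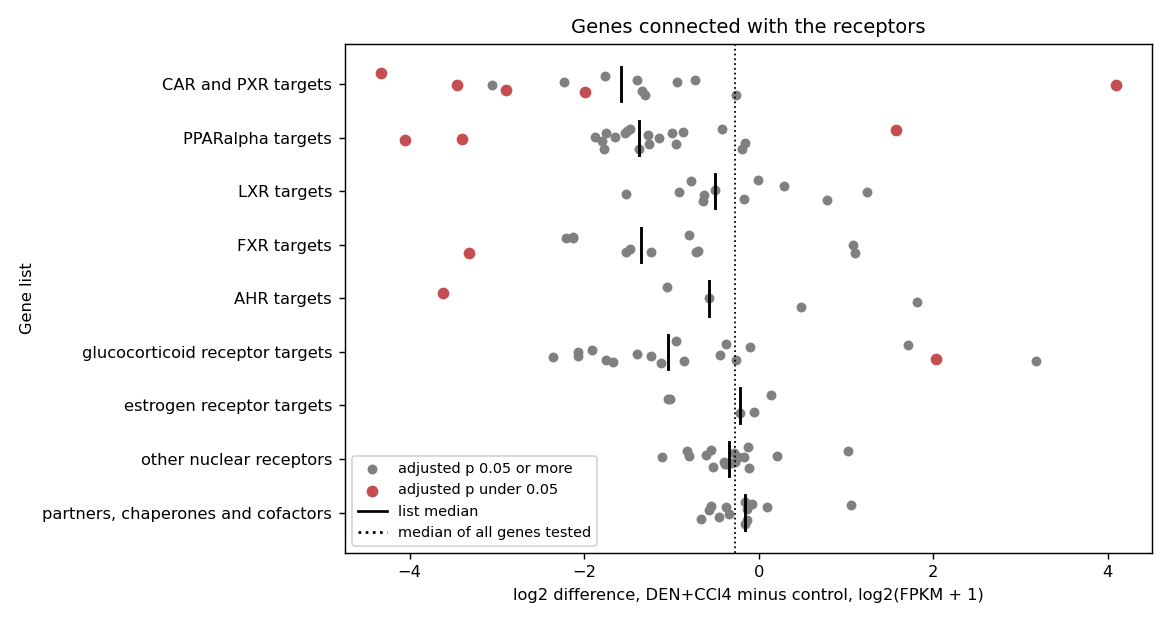
Log2 difference (DEN+CCl4 minus control, from FPKM + 1) of the tested genes in each list, with the list medians and the median of all genes (-0.27). The medians of the CAR and PXR targets (-1.58), PPARα targets (-1.37) and FXR targets (-1.35) are the lowest.

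None of the 18 other nuclear receptors tested passed, with a median of -0.34 (0.015 after scaling). Of them, 2 were lower at an unadjusted limma p under 0.05, against 5.07% of all genes. Hnf4a, a master regulator of hepatocyte genes, measured 55.3, 89.7 and 89.4 FPKM in control liver and 100.4, 119.8 and 22.1 FPKM after DEN+CCl4, with replicates 1 and 2 above all controls. The haem receptor Nr1d1 averaged 36.1 ± 24.7 and 37.4 ± 29.7 FPKM (SD, n = 3). None of 13 tested partners, chaperones and cofactors passed, with a median of -0.16 (-0.042 after scaling). Of these, 1 was higher at an unadjusted limma p under 0.05, against 2.53% of all genes. Hsp90ab1 and Fkbp4, chaperones of steroid receptors, averaged 116 ± 52.7 and 86.1 ± 50.2 FPKM and 26.6 ± 8.39 and 22.7 ± 18.0 FPKM (SD, n = 3). The gene past that unadjusted p was Hsp90aa1, named after its values were seen. It measured 1.86, 0.76 and 0.58 FPKM in control liver and 4.02, 5.0 and 1.38 FPKM after DEN+CCl4 (log2 difference 1.06, limma adjusted p = 0.480).

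Markers of cell types were set beside these values. None of the 25 tested markers passed. At an unadjusted limma p under 0.05, 3 were higher, all of stellate cells and fibroblasts, against 2.53% of all genes. Summed hepatocyte markers were at 29936 to 47048 FPKM in controls and 30521, 64278 and 12888 FPKM after DEN+CCl4, with a median difference of -0.40 (0.080 after scaling). Alb and Apoa1 make up most of that sum, and single markers went different ways. Cps1, of the urea cycle, measured 119.5, 121 and 121 FPKM in control liver and 111, 43.9 and 12.9 FPKM after DEN+CCl4, below all controls in each treated library (log2 difference -1.56, limma adjusted p = 0.872). Ttr, the thyroxine carrier transthyretin, measured 4175, 2891 and 6045 FPKM in control liver and 4130, 2103 and 219 FPKM after DEN+CCl4 (-1.75, limma adjusted p = 0.710). Apob measured 53.9, 19.3 and 4.99 FPKM in control liver and 29.4, 31.4 and 8.51 FPKM after DEN+CCl4 (0.16, limma adjusted p = 0.996). These 3 were named after their values were seen. Apoa1, the main protein of high-density lipoprotein, averaged 11833 ± 1074 and 16495 ± 16423 FPKM (SD, n = 3). Summed stellate cell and fibroblast markers were at 7.13 to 11.2 FPKM in controls and 17.8, 33.1 and 13.2 FPKM after DEN+CCl4, above all controls in each library. Among them the myofibroblast actin Acta2 averaged 1.37 ± 0.26 and 5.87 ± 4.35 FPKM and the proteoglycan Dcn 4.77 ± 2.40 and 4.57 ± 1.65 FPKM (SD, n = 3). Summed cholangiocyte markers, among them Spp1 and Krt19, were at 9.20 to 16.4 FPKM in controls and 14.5, 34.0 and 25.4 FPKM after DEN+CCl4. The sums for other macrophages (Cd68, Csf1r and others) were 7.19 to 19.5 and 6.65 to 17.8 FPKM, for endothelial cells (Clec4g, Stab2 and others) 9.20 to 16.8 and 6.00 to 18.7 FPKM, and for lymphocytes (Cd79a, Nkg7 and others) 3.71 to 5.38 and 2.75 to 6.88 FPKM. Of all these markers only Epcam, of cholangiocytes, was at 0 in any library. The part of cell composition in the receptor levels was not tested.

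The 5 tested genes most like Nr1i3 over the 6 libraries, by Pearson's r on scaled log2 values, were Exosc5, Apol7a, Vwa8, Mcm10 and Haus1, with r from 0.995 to 0.996. They top a ranking of 8528 genes over 6 points that share their libraries, so r is a description only. Apol7a, an apolipoprotein L gene, measured 18.4, 31.2 and 30.3 FPKM in control liver and 15.3, 4.30 and 0.61 FPKM after DEN+CCl4, below all controls in each treated library. None of the 5 passed the test, with limma adjusted p from 0.0951 upward.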

How the data were processed

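Poly(A) RNA was sequenced in 6 mouse liver libraries. The deposited values are FPKM per gene with 2 decimals, as the authors made them. The submitters' processing notes name HISAT, StringTie and GRCm38. Neither their versions nor the strand setting is given in the sources used here. With no counts in the table, the depth of each library is unknown, and no counting intervals can be given.

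Groups came from the sample titles. limma 3.58.1 in R 4.3.3, with an intensity trend, tested every gene whose mean reached 1 FPKM, at an adjusted p of 0.05. Values were log2(FPKM + 1), a scale that understates changes of low genes. The test was also run on simulated data, with the spread of the controls and changes in abundant genes only. It recovered 60% of changes of size 2 and 93% of size 4 on the log2 scale, and called 9 unchanged genes. The wider spread of the treated libraries was not simulated. Permutation tests, scaling and figures used Python 3.11.15 with scipy 1.17.1. Positions came from the GENCODE annotation of GRCm38.

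The 10 genes and the 16 other lists were chosen with earlier results of these data known. Named were all 10 genes, in each list up to 4 genes past the threshold by size of difference (the 2 of highest mean were added to lists with fewer than 2 such genes), and the 5 genes most like Nr1i3. Alternatives were other pseudocounts, filters, scalings, model settings and left-out libraries.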

Additional observations from a re-analysis of the deposited data

How the results depend on the processing

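Of the 9 tested receptor genes, 0 passed except without DEN+CCl4 replicate 1, when 1 (Nr1i3) did, as deposited (-3.91) and scaled (-3.22). Leaving out 1 library gave -3.91 to -1.80 for Nr1i3, -0.75 to 0.14 for Ppara, -1.07 to 0.0040 for Nr1h3 and -0.34 to 0.18 for Nr3c1, and -1.97 to -0.30 for Nr1i2, -1.81 to -0.23 for Nr1h4, -1.84 to -0.26 for Nr0b2, -1.22 to -0.26 for Rxra and -1.22 to -0.46 for Ahr. The upper end was without DEN+CCl4 replicate 3 for all 9 genes. With array weights Ppara turned to 0.073 and Rxra to 0.021. Nr3c1 turned to 0.11 after scaling and 0.039 with quantile normalization. With scaling and a library left out, Ppara turned to 0.015 (DEN+CCl4 replicate 3), Rxra to 0.094 (DEN+CCl4 replicate 2) and Nr3c1 to 0.20 and 0.14 (control replicates 1 and 3) and 0.16, 0.084 and 0.076 (DEN+CCl4 replicates). Ratios to Rxra that changed sign with a library left out ran from -0.017 to 0.47 for Ppara, from -0.38 to 0.27 for Nr1h3, from -0.73 to 0.030 for Nr1h4, from -0.91 to 0.0087 for Nr0b2, from -0.23 to 0.0080 for Ahr. The cause of these changes was not tested.

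Over all tested genes, 71 were higher and 55 lower. The counts were 6 and 3 with a pseudocount of 0.1, 4 and 0 with 0.01, 14 and 53 with a filter at 5 FPKM, 31 and 27 as TPM, 6 and 3 without mitochondrially encoded genes, 287 and 134 with array weights (whose estimation stopped short of its convergence tolerance), and 0 and 0 with no filter, median-ratio scaling, quantile normalization or no trend. Leaving out 1 library gave 0 to 109 and 0 to 270, and with scaling 0 to 294 and 0 to 362. With the replicate number as a replicate block 62 were higher and 32 lower, and Nr1i3 stayed at -2.92 (limma adjusted p = 0.406). Deviations of same-numbered libraries from their group means correlated at 0.072, 0.42 and -0.15 for numbers 1, 2 and 3. After scaling the values were 0.027, 0.49 and -0.070. Differently numbered libraries were not compared, so whether same-numbered libraries belong together was not tested. Depth is unknown, which limits Esr1, Nr3c1, Ahr and Ppara, the least abundant of the 10 genes.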

Other observations

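Of the 18 other nuclear receptors tested, 2 had treated libraries all below all controls, against 5.35% of all genes. The same 2 did so after scaling, against 6.52% of all genes. Both are named after their values were seen. Nr1h5, which encodes a relative of FXR, measured 1.74, 3.31 and 2.36 FPKM in control liver and 0.94, 1.02 and 0 FPKM after DEN+CCl4 (log2 difference -1.11, limma adjusted p = 0.259). Rxrg, a relative of Rxra, measured 1.62, 2.00 and 1.90 FPKM in control liver and 1.04, 0.64 and 0.23 FPKM after DEN+CCl4 (-0.82, limma adjusted p = 0.620). Neither passed the test. Rarg, a retinoic acid receptor, reached 15.6 FPKM in replicate 2 of the treated group and lay between 1.26 and 2.42 FPKM in the other 5 libraries. Gsta1, a glutathione transferase of the AHR list, was above all controls in every treated library, with 2.54, 1.26 and 4.21 FPKM in control liver and 10.1, 9.03 and 15.4 FPKM after DEN+CCl4 (1.82, limma adjusted p = 0.164), and did not pass.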
